A study of Sus scrofa with 9 samples.

Results

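The 6 genes described here are COX1, COX2, COX3, CYTB, ATP6 and ATP8, the protein genes of the mitochondrial genome that do not encode subunits of complex I. They were taken by gene identifier from a table of FPKM, fragments per unit of transcript length and of library depth, and all 6 were found, once each, among its 19643 entries. RNA came from longissimus dorsi, a back muscle, of pig embryos. The breeds are Tibetan and Wujin, both indigenous to China, and Large White, which was introduced, with 3 libraries each. The labels give the stage only as embryonic, with no gestational day, and name no treatment, sex or genotype. Wujin 1 is numbered in the table, whereas the remaining Wujin columns have the same header and are called Wujin a and Wujin b. Whether libraries of one breed stem from different animals is not stated, so their spread, and every p-value built on it, may be technical.

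Mitochondria keep a small circular genome in many copies per cell. It is transcribed as long precursors that are cut into messages. Its proteins are core subunits of the respiratory chain and ATP synthase, assembled with partners encoded in the nucleus. COX1, COX2 and COX3 form the catalytic core of cytochrome c oxidase (complex IV), which passes electrons to oxygen. CYTB encodes cytochrome b, the core of the cytochrome bc1 complex (complex III). ATP6 and ATP8 encode subunits of the membrane part of ATP synthase (complex V). In skeletal muscle these complexes supply ATP for sustained contraction, and mitochondrial transcripts are a large part of muscle messenger RNA.

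The 3 breeds did not sit on one scale in the deposited values. As deposited, the 13106 entries that averaged 1 FPKM or more were tested. Over them, Tibetan libraries had a median of 3.15 to 3.61 FPKM, Wujin libraries one of 4.84 to 6.27 and Large White libraries one of 6.72 to 7.20. Values are therefore given as deposited and after median-ratio scaling, which divides each library by the median ratio of its entries to their geometric mean over the libraries. Tibetan libraries had factors of 0.624 to 0.71, Wujin libraries 0.9805 to 1.215 and Large White libraries 1.298 to 1.356. The limit of 1 FPKM was applied again after this scaling, which left 12961 entries tested. Shares of all entries on the scaled values refer to these 12961. FPKM give no read numbers, so the depth behind a value is unknown and no counting interval can be given. Pearson correlations of log2(FPKM + 1) between Tibetan and other libraries were 0.697 to 0.785, against 0.890 to 0.968 among the other 6 libraries. Of 12 skeletal muscle markers, 7 could be matched by symbol and were above 0 in every library, except that ACTA1, skeletal alpha-actin, was listed at 0 in Tibetan 2. The 3 matched cardiac markers summed to at most 0.687 FPKM in any library.

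All 6 genes stood near the top of the table. By mean FPKM over the 9 libraries ATP8 ranked 4th, COX3 9th, ATP6 10th, COX1 11th, COX2 14th and CYTB 28th of all entries. Together they reached 64907 to 82771 FPKM in a Tibetan library, 24187 to 40067 FPKM in a Wujin library and 37159 to 44551 FPKM in a Large White library. That sum was 10.99% to 13.44% of a Tibetan library's total FPKM. Wujin libraries gave 4.79% to 7.28% of their total and Large White libraries 6.58% to 7.73%. The Tibetan libraries thus lay above all others in both measures, while the Wujin and Large White ranges overlapped.

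The genes of cytochrome c oxidase were all highest in Tibetan muscle. COX1, the subunit that holds the oxygen-reducing centre, stood at 12306, 10234 and 12352 FPKM in Tibetan 1, 2 and 3. Wujin 1, a and b held 5654, 6043 and 6138 FPKM, and Large White 1, 2 and 3 held 7148, 6839 and 6382 FPKM. No COX1 values overlapped between any pair of breeds as deposited, and its spread was small, with a coefficient of variation of 10.4%, 4.32% and 5.68% in Tibetan, Wujin and Large White. After median-ratio scaling the mean level of COX1 was 17247 ± 796 in Tibetan, 5299 ± 405 in Wujin and 5132 ± 402 in Large White libraries (SD, n = 3 each), so the order of Wujin and Large White turned and their values overlapped.

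COX2, the subunit that receives electrons from cytochrome c, stood at 8505, 8439 and 8603 FPKM in the Tibetan libraries, a coefficient of variation of 0.968%. After median-ratio scaling that coefficient was 6.21%, beside 4.62% for COX1. The Wujin libraries held COX2 at 3212, 3909 and 4189.5 FPKM as deposited. The Large White libraries held 6790.5, 5911 and 5648 FPKM. COX2 was the member that separated the breeds most completely, since the libraries of all 3 breeds kept apart both as deposited and after median-ratio scaling, in the order Tibetan, Large White, Wujin. The scaled means were 12683 ± 788, 4626 ± 547 and 3336 ± 95.9 (SD, n = 3 each).

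COX3, the third core subunit, stood at 14286, 14017 and 12573 FPKM in Tibetan libraries. Wujin 1, a and b held 5594, 7925 and 8212 FPKM, and the Large White libraries held 10103, 9144 and 8187 FPKM. Wujin b lay above Large White 3, so those breeds overlapped, and every Tibetan library lay above both. The median-ratio scaled level of COX3 was 20307 ± 2086 in Tibetan, 6375 ± 582 in Wujin and 6917 ± 872 in Large White libraries (SD, n = 3 each).

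CYTB had the lowest level per length of the 6 genes in every library. It stood at 3980 (Tibetan 1), 3189 and 3433 FPKM in the Tibetan libraries. Wujin 1, a and b held 1358, 2261 and 2339.8 FPKM, and the Large White libraries held 3160.4, 2743 and 2473 FPKM. As deposited, the lowest Tibetan value lay just above the highest Large White value and the Wujin values lay below both breeds. After median-ratio scaling the gap to Tibetan widened, with mean levels of 5241 ± 321 in Tibetan, 1737 ± 305 in Wujin and 2113 ± 307 in Large White libraries (SD, n = 3 each), and Wujin and Large White overlapped.

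ATP6, the subunit that forms the proton path of ATP synthase with the c-ring, stood at 14978, 13621 and 12956 FPKM in Tibetan libraries. Wujin 1, a and b held 4592, 7684 and 7549 FPKM and Large White libraries 8394, 7626 and 6823 FPKM. Wujin 1 was low, and the other Wujin values lay inside the Large White range. The scaled means were 20606 ± 1543, 5785 ± 963 and 5759 ± 717 in Tibetan, Wujin and Large White (SD, n = 3 each).

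ATP8, a small subunit of the same membrane part, varied far more than the others. It stood at 28716, 15408 and 27031 FPKM in Tibetan 1, 2 and 3, while Wujin 1, a and b held 3777, 10224 and 11639.5 FPKM and the Large White libraries held 8955, 6355 and 7646 FPKM. Its highest value within a breed was 1.86 times the lowest in Tibetan and 3.08 times in Wujin, against 1.02 times and 1.30 times for COX2. After median-ratio scaling these were 1.64 times and 2.49 times for ATP8, against 1.13 times and 1.05 times for COX2. Tibetan libraries still lay above all others, and the Wujin values spanned the whole Large White range. The scaled means were 34847 ± 8795, 7342 ± 3062 and 5785 ± 1048 (SD, n = 3 each).

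**Figure D1:**
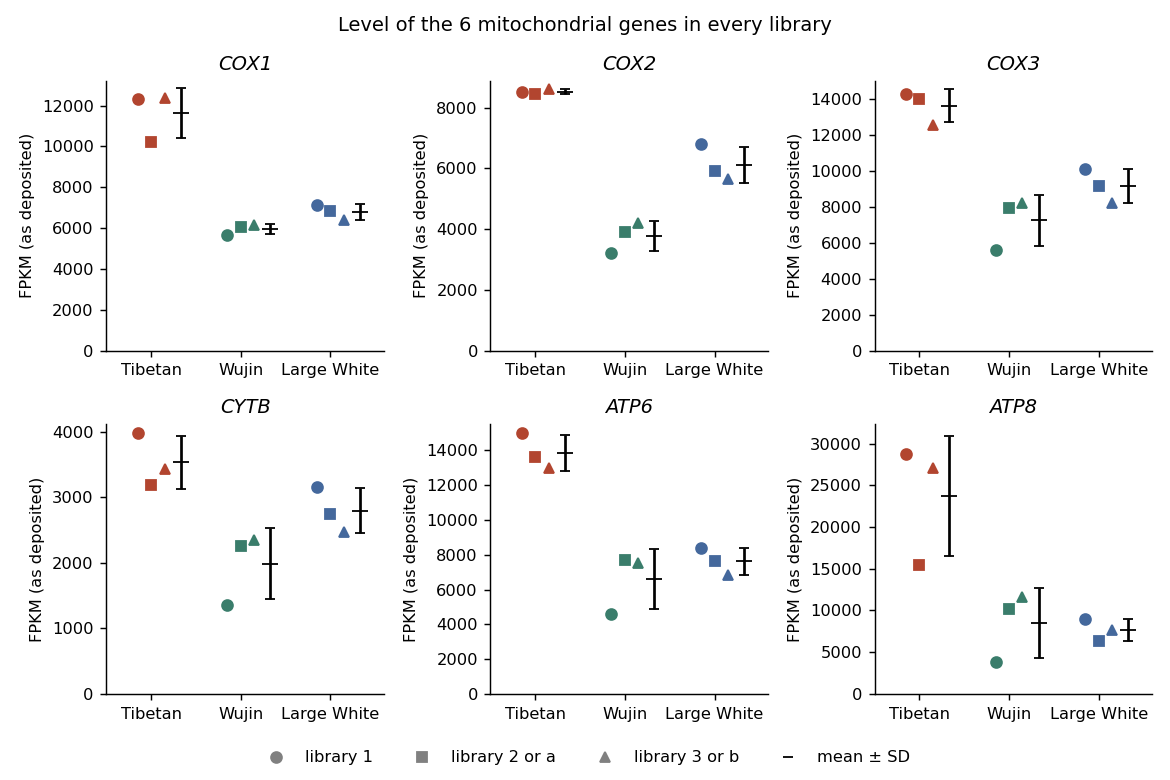
Deposited FPKM of the 6 genes (vertical axes, each starting at 0) in every library, by breed; points are single libraries and black bars are mean ± SD over 3 libraries. The Tibetan libraries lie above all others for each gene, Wujin 1 is the lowest Wujin library for each gene, and ATP8 has the widest spread, from 3777 to 28716 FPKM.

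Wujin 1 was the lowest Wujin library for all 6 genes as deposited, by a small margin for COX1 (5654 against 6043 and 6138 FPKM) and a large one for ATP8 (3777 against 10224 and 11639.5 FPKM). After median-ratio scaling it was the highest Wujin library for COX1, at 5766 against 5082 and 5049.6, and still the lowest for the other 5 genes. The order of the genes by level per length also differed between the breeds. In Tibetan libraries the order of mean FPKM was ATP8, ATP6, COX3, COX1, COX2 and CYTB, and only the neighbours ATP6 and COX3 overlapped. In Wujin it was ATP8, COX3, ATP6, COX1, COX2 and CYTB, and the first 4 overlapped with their neighbours. In Large White it was COX3, ATP8, ATP6, COX1, COX2 and CYTB, and only CYTB stood clear of its neighbour.

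Between Tibetan and Large White muscle, 5 of the 6 genes were called higher in Tibetan, that is, had an adjusted p under 0.05 in limma fitted to log2(FPKM + 1) with Benjamini-Hochberg adjustment over all entries tested. Of all entries 13.0% were called higher and 63.2% lower in this comparison, 76.2% in all. All 6 members had libraries that did not overlap, with Tibetan higher, as did 14.1% of all entries tested. The median fitted log2 difference of all entries was -0.77, and 17.1% of all calls were in the higher direction.

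The fitted log2 difference, Tibetan minus Large White, was largest for ATP8, at 1.59 ± 0.42 (SE; limma, adjusted p = 0.00649). It was 0.87 ± 0.21 for ATP6 (adjusted p = 0.00432) and 0.77 ± 0.13 for COX1 (adjusted p = 0.000615). For COX3 it was 0.58 ± 0.18 (adjusted p = 0.0150) and for COX2 0.48 ± 0.15 (adjusted p = 0.0132). CYTB was not called, with a difference of 0.34 ± 0.22 (adjusted p = 0.182). The calls of COX2 and COX3 ended under several alternatives. Without Large White 3 both ended (0.43 and 0.50), which left 3 members called, and both also ended with equal FPKM totals (0.34 and 0.44) or with no filter on low values. COX2 ended without Large White 2 (0.46) and COX3 without Tibetan 1 (0.54).

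After median-ratio scaling all 6 members were called higher in Tibetan than in Large White muscle, where 33.2% of all entries were called higher and 32.0% lower, 65.3% in all. The share of calls that were higher was 50.9% on this scale. None of the members overlapped between the breeds, as with 37.0% of all entries, higher in Tibetan. The scaled log2 difference was 2.57 ± 0.36 for ATP8, 1.84 ± 0.19 for ATP6, 1.75 ± 0.15 for COX1, 1.56 ± 0.18 for COX3, 1.46 ± 0.15 for COX2 and 1.32 ± 0.18 for CYTB (SE), with limma adjusted p-values from 1.05e-05 for COX1 to 0.000211 for ATP8. Leaving out any single library kept all 6 called on this scale. Quantile normalization, which forces the libraries onto one distribution, turned the direction of 4 of the 6: COX3 was then called lower in Tibetan (-0.73), and COX1 (-0.06), COX2 (-0.20) and ATP6 (-0.08) also changed sign without being called. CYTB (0.25) and ATP8 (0.45) kept the higher direction there, and neither was called. A value there depends only on the rank of the entry within its library, and the members ranked 4th to 28th by mean FPKM. A higher level without a higher rank therefore cannot show after quantile normalization. As deposited, under median-ratio scaling and with equal totals, all 6 differences were in the higher direction.

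Against Wujin all 6 genes were called higher in Tibetan muscle, as were 13.8% of all entries, with 53.9% called lower and 67.7% called in all. The share of calls that were higher was 20.4% as deposited and 51.7% after median-ratio scaling. All 6 members lay above Wujin in every Tibetan library, as did 14.2% of all entries. The deposited log2 difference, Tibetan minus Wujin, was 1.58 ± 0.42 for ATP8 (limma, adjusted p = 0.00803), 1.18 ± 0.15 for COX2 (8.45e-05) and 1.10 ± 0.21 for ATP6 (0.00129). It was 0.96 ± 0.13 for COX1 (0.000194), 0.93 ± 0.18 for COX3 (0.00136) and 0.87 ± 0.22 for CYTB (0.00631). The 6 genes stayed called without any single library, Wujin 1 included, and after median-ratio scaling, where the differences ran from 1.61 for CYTB to 2.32 for ATP8 and 31.8% of all entries were called higher, 29.7% lower and 61.4% in all. The members did not overlap on that scale either, as with 32.7% of all entries in the higher direction. After quantile normalization COX2 and CYTB were the only members still called, while COX1 (-0.01) and COX3 (-0.16) changed sign. The comparisons of Tibetan with Wujin and with Large White share the Tibetan libraries.

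Between Wujin and Large White 1 of the 6 members was called. COX2 was that gene, lower in Wujin at -0.70 ± 0.15 (SE; limma, adjusted p = 0.0346), with 1.67% of all entries called higher, 4.85% lower and 6.52% in all. COX1, COX2 and CYTB had libraries that did not overlap, all lower in Wujin, as had 35.3% of all entries. Of all calls 25.6% were higher as deposited and 60.3% after median-ratio scaling. The call of COX2 ended after median-ratio scaling, where the difference was -0.47 ± 0.15, with equal totals (-0.61), or without the mitochondrial genes in them (-0.64), and with no filter or only the 6 libraries (both -0.70). It also ended without Tibetan 1, Wujin 1, Wujin a, or Large White 1, 2 or 3, so 3 of the 9 fits that left out a library kept it, with adjusted p from 0.0367 to 0.123 over these 9 and a lowest value of 0.0204 over all alternatives, under quantile normalization. The deposited log2 difference was -0.53 ± 0.22 for CYTB, -0.35 ± 0.18 for COX3, -0.24 ± 0.21 for ATP6, -0.19 ± 0.13 for COX1 and 0.02 ± 0.42 for ATP8, none of them called. An uncalled difference does not show equal levels. After median-ratio scaling 0 members were called in limma, with 1 at an unadjusted p under 0.05 (COX2), while 1.78% of all entries were called higher and 1.17% lower, 2.96% in all. COX2 alone still had libraries that did not overlap on that scale, as had 19.9% of all entries in the lower direction.

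**Figure D2:**
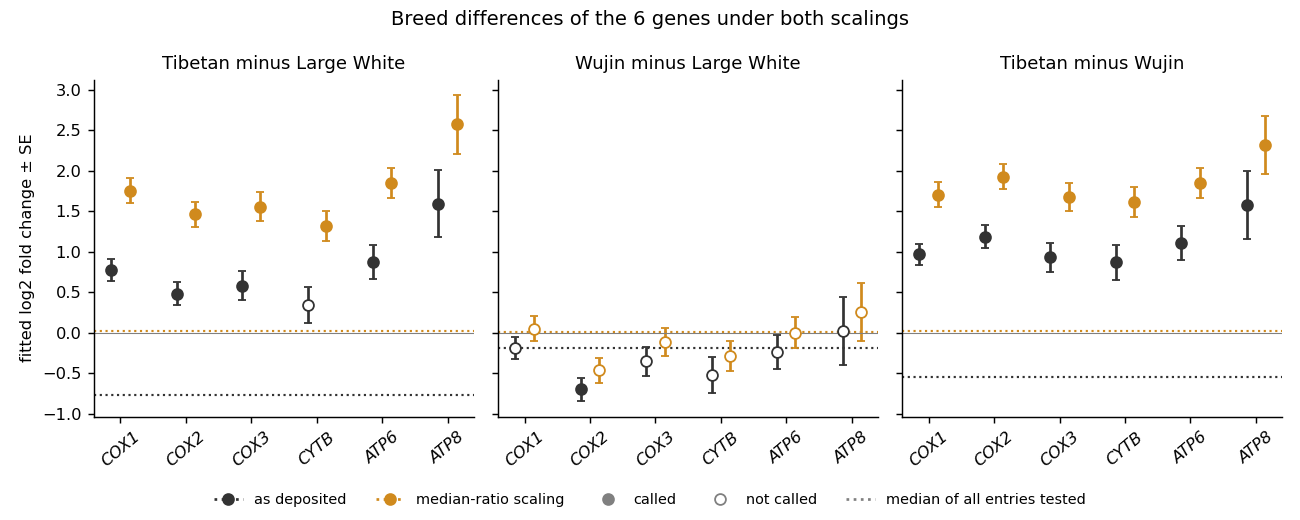
Fitted log2 fold change ± SE of each gene in the 3 comparisons, as deposited (black) and after median-ratio scaling (orange); filled points are called and dotted lines mark the median change of all entries tested. Median-ratio scaling raises the Tibetan differences of all 6 genes and raises the median of all entries from -0.77 to 0.01 against Large White, and no gene is called for Wujin against Large White on that scale.

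Some marker lists of other cells moved with the Tibetan libraries and others did not. The 7 matched fibroblast markers gave sums of 321 to 359 FPKM in a Tibetan library, 3065 to 5617 in a Wujin library and 5357 to 5994 in a Large White library, and no breed had one at 0 throughout. The 5 matched red blood cell markers gave 148.5 to 579.5 FPKM in a Tibetan library, 1470 to 3838 in a Wujin library and 1931 to 3744 in a Large White library. The 3 matched endothelial markers gave 29.7 to 39.2 FPKM in Tibetan, 45.9 to 72.7 FPKM in Wujin and 75.1 to 79.9 FPKM in Large White muscle. Like the other sums here, these are as deposited. Their median log2 difference, Tibetan minus Large White, was -0.77, the same as over all entries (-0.77). After median-ratio scaling KDR was called lower (-1.60), TEK was called higher (0.80) and PECAM1 was not called (0.18). The 2 matched adipocyte markers were highest in Tibetan, at 1.60 to 5.50 FPKM beside 0.228 to 1.49 FPKM (Wujin) and 0.0516 to 0.155 FPKM (Large White, where PLIN1 was at 0 throughout). The sums of the 6 matched leukocyte markers overlapped between all breeds. They were 7.53 to 15.5 FPKM (Tibetan), 6.88 to 12.3 FPKM (Wujin) and 11.5 to 16.0 FPKM (Large White). Of single leukocyte markers, CSF1R was called lower in Tibetan than in Large White as deposited (-0.78). After median-ratio scaling CSF1R was not called (-0.08) and CD14 was called higher (0.88). The 7 skeletal muscle markers gave 31480 to 78980 FPKM in Tibetan, 21750 to 24940 FPKM in Wujin and 12770 to 16640 FPKM in Large White muscle. That sum includes ACTA1 at 0 in Tibetan 2, which may be a failed estimate. Without ACTA1 the other 6 gave 31480 to 37150 FPKM in Tibetan, 14600 to 19230 FPKM in Wujin and 9565 to 12570 FPKM in Large White muscle. Among these, MYH3, the embryonic myosin heavy chain, averaged 62.6 ± 8.70 FPKM in Tibetan, 1429 ± 208 in Wujin and 1754 ± 208 in Large White libraries. MYH8, the perinatal myosin heavy chain that follows it in development, averaged 3330 ± 512, 108 ± 8.83 and 54.0 ± 4.75 FPKM (SD, n = 3 each). Both genes were chosen for mention after their values were seen. Since no gestational day is given, breed and developmental stage cannot be told apart. The part of these markers in the differences of the mitochondrial genes was not tested. In bulk muscle more cells of a type and more RNA per cell cannot be told apart.

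Ratios of members within a library do not depend on how that library is scaled. The ratio of COX2 to COX1 was 0.691, 0.825 and 0.6965 in the Tibetan libraries. Wujin libraries had ratios of 0.568, 0.647 and 0.683, and Large White libraries ones of 0.95, 0.864 and 0.885. Every Large White library had more COX2 per COX1 than any library of the indigenous breeds. The ratio of CYTB to COX1 had its highest values there too, at 0.3875 to 0.442 in Large White, 0.2403 to 0.381 in Wujin and 0.278 to 0.323 in Tibetan muscle. No test was made of these ratios, which were chosen after the values were seen.

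The ratio of ATP6 to COX3 was 0.831, 0.834 and 0.833 in Large White libraries, 0.821, 0.9695 and 0.919 in Wujin and 1.05, 0.972 and 1.03 in Tibetan libraries, so Tibetan libraries lay above all others. The FPKM of ATP8 and ATP6 did not keep step in the same way, although their coding sequences overlap. Their ratio does not by itself show separate messages at different levels. The ratio of ATP8 to ATP6 was 1.92, 1.13 and 2.09 in Tibetan 1, 2 and 3. Wujin 1, a and b had ratios of 0.823, 1.33 and 1.54, and the Large White libraries ones of 1.07, 0.833 and 1.12. Tibetan 2 and Wujin 1 had the lowest ratios of their breeds. The Wujin range overlapped with both other breeds, while the lowest Tibetan ratio (1.131) lay just above the highest Large White ratio (1.121). ATP8 made up 23.7% to 35.1% of the 6-gene sum of Tibetan libraries, 15.6% to 29.05% for Wujin and 16.5% to 20.6% for Large White. CYTB had a smaller share of that sum in Tibetan (4.73% ± 0.24) than in Wujin (5.80% ± 0.17) and Large White libraries (6.95% ± 0.26; SD, n = 3 each), with no overlap between breeds. That separation depended on ATP8. With ATP8 left out of the sum, the share of CYTB was 6.44% to 7.36% in Tibetan and 6.655% to 8.23% in Wujin, which overlapped, and 8.38% to 8.88% in Large White, above both.

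**Figure D3:**
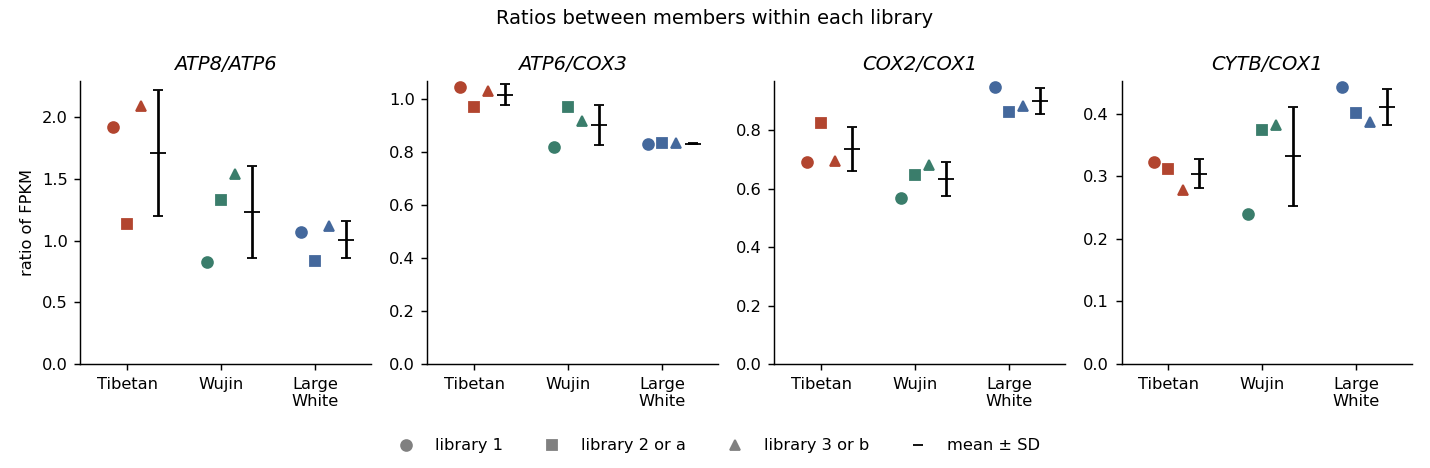
Ratio of deposited FPKM between pairs of members in each library (vertical axes from 0), by breed, with mean ± SD over 3 libraries. COX2/COX1 and CYTB/COX1 are highest in Large White, ATP6/COX3 lies at 0.831 to 0.834 in Large White libraries, and ATP8/ATP6 is low in Tibetan 2 (1.13) and Wujin 1 (0.823) within their breeds.

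Across the 9 libraries the 6 genes moved together, with Pearson correlations of log2(FPKM + 1) from 0.753 for COX2 with ATP8 to 0.983 for COX3 with ATP6 as deposited, and from 0.893 to 0.996 for the same pairs after median-ratio scaling. These describe 9 libraries that share the breed difference and the scaling of each library. In the order of the RefSeq pig assembly Sscrofa11.1, COX1, COX2, ATP8, ATP6 and COX3 follow one another with no other protein gene between them, ATP8 overlaps ATP6 and ATP6 overlaps COX3, and CYTB lies apart, after ND6. The strongest correlation was between overlapping neighbours, while ATP8 and ATP6, which overlap too, correlated at 0.932 as deposited. Counting with regard to strand is not stated in the sources used here, so reads from overlapping genes or from the opposite strand cannot be told apart. Nuclear copies of mitochondrial sequence are a further place where such reads can be assigned with uncertainty.

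The 7 complex I genes of the same genome did not follow the 6 members in every comparison. As deposited, Tibetan against Large White had 1 complex I gene called higher (ND4), 2 lower (ND2 and ND6) and 4 not called, beside 5 higher and 0 lower among the members. Of all entries 13.0% were called higher and 63.2% lower there, and 33.2% and 32.0% after median-ratio scaling. After median-ratio scaling 5 of the 7 were called higher and ND2 (-0.13 ± 0.20) and ND6 (0.13 ± 0.15) were not called. In Wujin against Large White, ND1, ND2 and ND6 were called lower both as deposited and after median-ratio scaling, as were 4.85% and 1.17% of all entries. ND2, which lies beside COX1, fell by 2.04 ± 0.20 on the scaled log2 scale (SE; limma, adjusted p = 0.00244), while COX1 differed by 0.05 ± 0.15. In Tibetan against Wujin the complex I genes went the way of the members, with 6 of 7 called higher as deposited and all 7 after median-ratio scaling. Of all entries 13.8% were called higher and 53.9% lower as deposited, and 31.8% and 29.7% after scaling.

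As a share of all 13 protein genes the 6 members held 81.59% to 81.75% of the summed FPKM in the Tibetan, 78.95% to 79.08% in the Wujin and 71.53% to 72.24% in the Large White libraries. The range within a breed was narrow and the breeds did not overlap. Without ATP8 the share of the other 5 was 74.19% to 77.23% in the Tibetan, 72.85% to 76.11% in the Wujin and 66.75% to 68.42% in the Large White libraries. Large White then still lay below both indigenous breeds, which overlapped with each other. No test was made of this share.

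**Figure D4:**
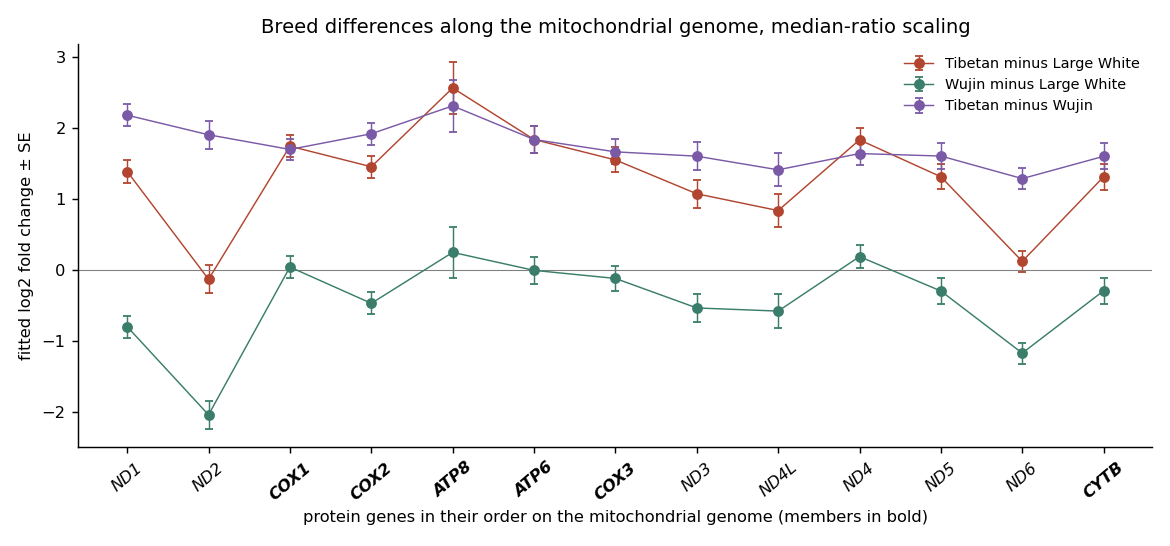
Fitted log2 fold change ± SE after median-ratio scaling for the 13 protein genes in their order on the mitochondrial genome, with the 6 members in bold and 1 line per comparison. The Tibetan differences of the members lie between 1.32 and 2.57, whereas ND2 and ND6 lie near 0 against Large White and at -2.04 and -1.17 for Wujin minus Large White.

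Most of the nuclear-encoded partners were also higher in Tibetan than in Large White muscle. Symbols were matched for 7 of 18 nuclear subunits of cytochrome c oxidase, for 7 of 10 of the bc1 complex with cytochrome c and for 6 of 18 of ATP synthase, so the lists are partial. As deposited, all 7 bc1 complex and cytochrome c genes and all 6 ATP synthase genes were called higher. Of the oxidase genes 4 were called higher and 3 lower. Among all entries tested, 13.0% were called higher and 63.2% lower. The median fitted log2 difference was 1.68, 0.999 and 1.16 for the bc1, ATP synthase and oxidase lists, beside 0.68 for the 6 mitochondrial members and -0.77 over all entries. After median-ratio scaling the medians were 2.65, 1.97 and 2.14, beside 1.65 for the members and 0.01 over all entries.

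COX5A, an oxidase subunit, stood at 517.5 ± 49.6 FPKM in the Tibetan and 107 ± 5.32 FPKM in the Large White libraries, a log2 difference of 2.26 ± 0.11 (SE; limma, adjusted p = 2.88e-07). NDUFA4, now counted as an oxidase subunit, differed by 1.88 ± 0.13 and COX5B by 1.515 ± 0.14 on the same scale. COX7A2L, a factor of respiratory supercomplexes, was lower in Tibetan, at 9.28 ± 1.24 FPKM beside 35.9 ± 1.04 FPKM in Large White (-1.85 ± 0.13), and was called lower after median-ratio scaling too (-0.93). COX7A2 and COX8A were called lower as deposited (-1.12 and -0.95) and not called after median-ratio scaling (-0.15 and 0.02). In complex III, the partner complex of CYTB, UQCRC1, a core subunit, stood at 277 ± 12.4 against 58.8 ± 0.449 FPKM (2.22 ± 0.10) and UQCRFS1, the iron-sulfur protein, at 49.75 ± 1.495 against 14.55 ± 0.283 FPKM. In ATP synthase, ATP5MC1, which encodes the c-ring subunit that ATP6 works against, stood at 459.7 ± 74.97 against 102.3 ± 3.57 FPKM (2.15 ± 0.14). ATP5F1A, the alpha subunit, stood at 448 ± 32.2 against 231 ± 2.02 FPKM (0.95 ± 0.11).

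Genes that handle mitochondrial DNA and RNA were called in both directions. Of 27 tested, 9 were called higher, 5 lower and 13 not called in Tibetan against Large White as deposited, and 19 higher and 2 lower after median-ratio scaling. Over all entries 13.0% were called higher and 63.2% lower as deposited, and 33.2% and 32.0% after scaling. The list's median log2 difference was -0.15 as deposited and 0.58 after scaling, beside -0.77 and 0.01 over all entries. ESRRA, a nuclear receptor that drives oxidative genes, stood at 38.3 ± 3.35 against 6.35 ± 0.286 FPKM (2.415 ± 0.11), and PPARGC1A, a coactivator of mitochondrial biogenesis, at 26.4 ± 16.5 against 1.90 ± 0.418 FPKM (3.08 ± 0.36). MGME1, a nuclease that maintains mitochondrial DNA, was lower as deposited (-1.82 ± 0.13), as was NRF1, a transcription factor of nuclear mitochondrial genes (-1.13 ± 0.10). After median-ratio scaling MGME1 (-1.07) and NRF1 (-0.37) were still called lower, and ESRRA (3.32) and PPARGC1A (3.88) higher. Of 12 assembly factors of complexes III, IV and V, 3 were called higher, 5 lower and 4 not called as deposited, and 7 higher and 1 lower after median-ratio scaling, to be read against the same shares of all entries. Their median log2 difference was -0.40 as deposited and 0.47 after scaling. SCO1, a copper chaperone of the oxidase, differed by -1.47 ± 0.15 and COX17, which delivers that copper, by 1.07 ± 0.17 as deposited. After median-ratio scaling they differed by -0.66 and 2.04.

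Among 8 abundant proteins used as a gauge of mitochondrial content, 5 were called higher and 2 lower in Tibetan against Large White as deposited, and 7 higher and 0 lower after median-ratio scaling. Of all entries 13.0% were called higher and 63.2% lower as deposited, and 33.2% and 32.0% after scaling. The 8 genes summed to 605 to 649 FPKM per Tibetan library, 363 to 373 per Wujin library and 405 to 428 per Large White library. VDAC1, the outer membrane channel, stood at 238 ± 10.8 FPKM in the Tibetan and 95.98 ± 3.01 FPKM in the Large White libraries, a log2 difference of 1.30 ± 0.10 (SE). VDAC1 and VDAC3 (87.2 against 38.05 FPKM, 1.16 ± 0.13) had the largest differences of the 8 as deposited. TOMM20 (23.6 against 39.2 FPKM, -0.71 ± 0.12) and HSPD1 (36.5 against 54.3 FPKM, -0.56 ± 0.13) were the 2 called lower. After median-ratio scaling TOMM20 was not called (0.24) and HSPD1 was called higher (0.39). In Wujin against Large White, limma called 0 of these 8 on either scale, with 2 (deposited) and 3 (scaled) at an unadjusted p under 0.05. It called 0 of the 7 oxidase, 7 bc1 and 6 ATP synthase genes, with 0, 2 and 1 under that unadjusted p as deposited and 2, 1 and 1 after scaling. It called 0 of the 12 assembly factors, with 5 and 2 under it. Since 6.52% of all entries were called as deposited and 2.96% after scaling, counts of 0 in lists of this size are near that background. LRPPRC, which stabilises mitochondrial messages, was the 1 gene called in the DNA and RNA handling list there as deposited, lower in Wujin at 8 ± 2.86 against 15.46 ± 0.358 FPKM, and it was not called after median-ratio scaling.

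**Figure D5:**
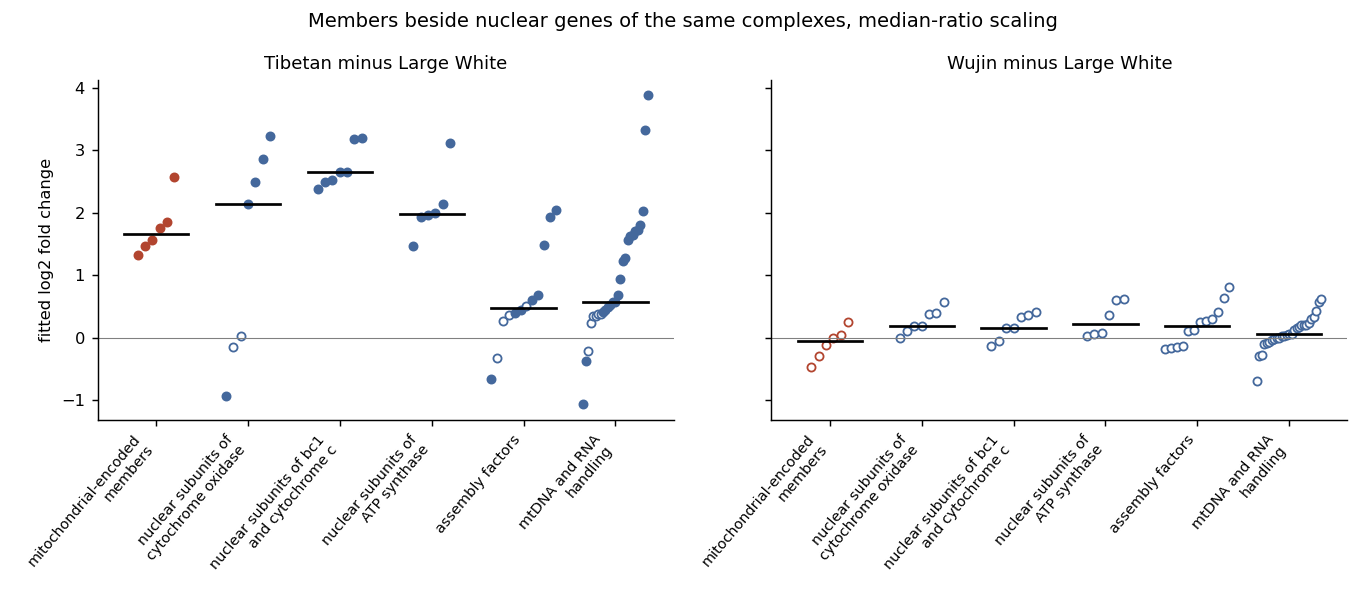
Fitted log2 fold change after median-ratio scaling of the 6 members (red) and of nuclear genes of the same complexes and their expression machinery (blue), for Tibetan and Wujin minus Large White; filled points are called and black lines are list medians. Against Large White the Tibetan medians are 1.65 for the members and 2.65 for the bc1 complex list, and no point is called for Wujin.

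By Pearson correlation of log2(FPKM + 1) over the 9 libraries, among 4621 named nuclear genes with a mean of at least 5 FPKM, the gene most like COX1 was PPP1R3C (0.996), a glycogen-targeting subunit of protein phosphatase, at a mean of 80.2 FPKM in Tibetan, 7.96 in Wujin and 11.15 in Large White. IFRD1 (0.993) and DLST (0.992), a subunit of the oxoglutarate dehydrogenase complex, came next. COX2 was most like CCNG1 (0.983), FXR1 (0.982) and MAP1LC3B (0.981). ELOC and KYAT3 were among the 3 nearest of both COX3 (0.991 and 0.988) and ATP6 (0.986 and 0.977), and NNT, the transhydrogenase of the inner membrane, stood between them for ATP6 (0.9795). CYTB was most like PAIP1 (0.982), FXR1 (0.9695) and CRBN (0.9675). ATP8 was most like MEF2A (0.976), a muscle transcription factor, S1PR1 (0.974) and PRKAB2 (0.960), a subunit of AMP-activated kinase. All these coefficients rest on 9 points, among which the Tibetan libraries are the high group for each member. For COX2 the other breeds also differed, as did CCNG1, at a mean of 126.9 FPKM in Tibetan, 54.3 in Wujin and 94.4 in Large White.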

How the data were processed

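RNA of embryonic longissimus dorsi muscle was measured in 9 libraries, 3 per breed; per the labels' protocols, Trizol was used for RNA and a TruSeq kit for the libraries. The authors deposited 1 table of FPKM for the series, per the file headers; TopHat is named, without a version, in the submitters' processing notes, but no source used here names the quantifier, build or annotation. Symbols were matched by identifier for 11179 of 19643 entries. No sequences were used and none are shown.

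limma 3.58.1 in R 4.3.3 was fitted to log2(FPKM + 1) of entries averaging 1 FPKM or more, with breed means over all 9 libraries and a variance trend (lmFit, contrasts.fit, eBayes). Benjamini-Hochberg adjustment covered every tested entry, with calls under 0.05. The code was tested on simulated data. Genes named were all members, the up to 4 genes of smallest p in each list for Tibetan against Large White, and the 3 nuclear genes most correlated with each member; ND1, ND2, ND4, ND6, COX7A2, COX8A, LRPPRC, MYH3 and MYH8 were chosen after their values were seen, or as the genes of a small count. Members, lists and rules were chosen with earlier results of these data known. Alternatives were 5 scalings, 2 pseudocounts, 2 filters, no variance trend, fewer libraries and a replicate block.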

Additional observations from a re-analysis of the deposited data

How the results depend on the processing

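Over the alternatives chosen at the outset, the log2 differences of single members kept direction and side of the threshold 111 times for Tibetan minus Large White. With the sign kept, 9 calls were lost and 2 gained, and 4 signs were reversed. A reversed sign was counted only as reversed, also where the call was lost with it. The numbers were 116, 2, 0 and 2 for Tibetan minus Wujin and 103, 11, 0 and 6 for Wujin minus Large White. For Tibetan minus Large White, 5 members called became 1 (COX3, lower) under quantile normalization and 3 with equal totals or no filter, and 3 to 5 when a library was left out. Under quantile normalization COX1, COX2, COX3 and ATP6 reversed to -0.061, -0.197, -0.731 and -0.077. For Tibetan minus Wujin, 6 became 2 under quantile normalization, where COX1 and COX3 reversed to -0.0133 and -0.158. For Wujin minus Large White, 1 became 0 under median-ratio scaling, equal totals, equal totals without the mitochondrial genes, no filter and only the 6 libraries, and 0 to 1 when a library was left out; the sign of COX1 turned to 0.0464 under median-ratio scaling and that of ATP8 to -0.00716 under quantile normalization. Leaving out a library gave ATP6 -0.366 to 0.00556 and ATP8 -0.286 to 0.526 there. An alternative added after seeing the data left out each library under median-ratio scaling. Its signs were compared with the deposited fit, although all libraries on this scale already gave 0.0464 for COX1 and -0.000333 for ATP6, Wujin minus Large White. Against the deposited sign, COX1 was reversed at 0.0486, 0.0481 and 0.0456 without Tibetan 1, 2 and 3. It was also reversed at 0.0746 and 0.0791 without Wujin a and b and at 0.1004 and 0.0553 without Large White 1 and 2. Without Wujin 1 and without Large White 3 COX1 stood at -0.015 and -0.0164, the deposited sign. ATP6 was reversed at 0.00187 and 0.00135 without Tibetan 1 and 2, 0.146 without Wujin 1 and 0.0886 and 0.0062 without Large White 1 and 2. The cause was not tested. Without ATP8 in the sum the shares of COX1, COX2, COX3, CYTB and ATP6 moved to 22.7%, 16.7%, 26.6%, 6.89% and 27.1% in Tibetan, 23.7%, 14.8%, 28.3%, 7.67% and 25.6% in Wujin and 21.0%, 18.9%, 28.2%, 8.59% and 23.45% in Large White, since the sum is smaller. The replicate block, possible only for Tibetan and Large White, left 5 members called. Numbered pairs had correlations of deviations of -0.08 to 0.01, beside -0.111 to 0.125 for pairs of unlike number. These few values cannot show whether libraries of one number share more than the number. No paired analysis was possible for Wujin because 2 of its columns share a header. FPKM carry no read numbers, so what depth limits cannot be shown here.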
